A study of Homo sapiens with 5 samples.

Results

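MT1E, MT1X and MT2A are metallothionein genes, 3 of the 4202 genes in the deposited expression table, and were taken from it by gene symbol. They were chosen by the levels in these same 5 libraries, in which they differed between conditions, so the values below describe that choice and none was tested. The cells were MDA-MB-231, a line of triple-negative breast cancer with mesenchymal features. One library of total RNA was made for each of 5 conditions, all at 4 h: mock, bortezomib, LU-102, CGI-1746, and the latter pair together, called the combination below. CGI-1746 inhibits BTK, a kinase known from B cells, and the title of the series places it at the proteasome. LU-102 is known as an inhibitor of the trypsin-like sites of the proteasome, and bortezomib, used in the clinic, acts mainly on its chymotrypsin-like sites. No doses are given in the labels. With 1 library a condition there is no replicate error, and a difference between conditions cannot be told apart from a difference between single cultures. The intervals below are at 95% and cover the counting of reads only.

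Metallothioneins are small proteins rich in cysteine that bind zinc, copper and cadmium through the sulfur of those residues. Their genes are switched on by the zinc-sensing transcription factor MTF1, which binds metal response elements in their promoters. Glucocorticoids and oxidants also raise their RNA. MT2A is usually the most abundant form in human cells, and MT1 and MT2 proteins buffer free zinc and scavenge oxidants.

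The 3 genes lie in the metallothionein cluster of chromosome 16 (GRCh38.p14), which RefSeq lists with 16 loci, 11 of them protein-coding, between 56565073 and 56684196. MT2A spans 56608584 to 56609497, MT1E 56625781 to 56627112 and MT1X 56682470 to 56684196. Each has a coding transcript of 3 exons with 186 coding bases. MT1A and MT1F, 2 further genes of the cluster, were also in the table and are given for comparison. The coding sequences are shown because they set how well reads of the genes can be told apart. They are those of GENCODE 29 on GRCh38, all from the plus strand of chromosome 16. Capitals mark the 22 positions at which the 3 genes do not all have the same base, and the other 164 are shared.
MT1E: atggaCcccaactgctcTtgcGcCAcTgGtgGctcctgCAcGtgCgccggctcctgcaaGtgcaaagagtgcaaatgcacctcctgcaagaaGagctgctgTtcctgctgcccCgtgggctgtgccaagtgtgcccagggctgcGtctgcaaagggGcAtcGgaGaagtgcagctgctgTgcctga
MT1X: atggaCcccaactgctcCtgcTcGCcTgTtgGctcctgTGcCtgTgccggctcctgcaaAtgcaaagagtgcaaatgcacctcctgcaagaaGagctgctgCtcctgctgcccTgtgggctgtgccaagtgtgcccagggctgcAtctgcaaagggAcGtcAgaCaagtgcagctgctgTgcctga
MT2A: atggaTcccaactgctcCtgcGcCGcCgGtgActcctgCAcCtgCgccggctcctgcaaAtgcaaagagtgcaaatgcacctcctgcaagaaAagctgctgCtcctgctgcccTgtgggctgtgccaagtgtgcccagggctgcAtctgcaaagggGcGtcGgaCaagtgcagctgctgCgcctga
Each holds 20 TGC or TGT codons for cysteine among its 62 codons. MT1E and MT2A were identical at 172 of 186 coding bases (92.5%), MT1X and MT2A also at 172, and MT1E and MT1X at 169 (90.9%). The longest run shared without a difference was 63 bases for MT1X and MT2A, 41 for MT1E and MT1X and 32 for MT1E and MT2A, below the read length of 150 bases. How the authors assigned reads that match several genes is not stated in the labels or the file, so the split of reads among the metallothioneins is uncertain.

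Of the 3 genes, MT2A and MT1X matched RefSeq's table of promoter windows, which run from 250 bases before to 50 bases after the start. The 250 bases before each start are shown because both genes stood higher together with the inhibitors. MT2A is chr16:56608334-56608583 and MT1X is chr16:56682220-56682469 of GRCh38.p14, plus strand. Capitals mark the core of the metal response element, searched as TGCACNC and TGCGCNC on both strands.
MT2A: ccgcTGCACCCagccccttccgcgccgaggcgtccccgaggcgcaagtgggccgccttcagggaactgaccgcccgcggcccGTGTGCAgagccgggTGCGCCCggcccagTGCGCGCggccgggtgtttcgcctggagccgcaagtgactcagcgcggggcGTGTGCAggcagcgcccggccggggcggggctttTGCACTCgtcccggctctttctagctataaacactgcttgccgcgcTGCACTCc
MT1X: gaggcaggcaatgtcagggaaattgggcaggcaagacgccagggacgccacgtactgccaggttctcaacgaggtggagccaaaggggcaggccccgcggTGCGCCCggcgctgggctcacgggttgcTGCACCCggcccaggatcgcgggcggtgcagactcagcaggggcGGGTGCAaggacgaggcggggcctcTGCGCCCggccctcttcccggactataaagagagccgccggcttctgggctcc
In the windows of 300 bases MT2A had 8 matches, 1 of them after the start, and MT1X had 4. At least 8 were found in 7 of 35116 such windows (0.0199%), at least 4 in 211 (0.601%) and at least 1 in 29.6%. The motif is rich in G and C, and so are both windows, at 72% for MT2A and 67% for MT1X against a median of 58.7% over all windows. A TATA box, TATAAA, lay 29 to 24 bases before the start of MT2A and 30 to 25 before that of MT1X, and 11.5% of windows held one on either strand. The AP-1 letters TGANTCA were in MT2A only, 104 to 98 bases before its start, and in 7.71% of all windows. The core of the antioxidant response element, TGACNNNGC, had 1 match in each gene, in MT2A on the same letters as the AP-1 match, and was in 13.3% of windows. The heat shock letters GAANNTTC and TTCNNGAA had no match in either window and were in 13.5% of all. A match is a string of letters and not a measured site.

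The levels are the authors' normalized signals, which behave as reads per base of gene, with 1 factor for each library. Summed over all genes they ran from 99255 in mock to 135512 with bortezomib. In the bortezomib library 2231 genes reached a level of 1, against 4161 to 4177 in the others, and the all-gene median there was lower than in mock by log2 -0.98. The smallest summed level of any gene over the 5 libraries was 5.04. A gene can reach such a sum through the other libraries while low with bortezomib. Counts, medians and shares over all genes cover only the genes deposited. Of the 8 mesenchymal markers looked up, all were found in mock, from SNAI2 at a level of 4.85 to VIM at 92.1. The luminal keratin KRT18 was also present, at 35.5, above 6 of these 8, and KRT8 had 2.02. ESR1, GATA3, EPCAM, CDH1 and the markers of blood and endothelial cells were not analysed here.

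MT1E, an MT1 form, had a level of 149.8 in mock, 196 under CGI-1746, 161 under LU-102, 257 under the combination and 39.6 under bortezomib. The combination library was the highest for this gene and the bortezomib library the lowest. MT2A, the MT2 form, had 135 in mock, 168 under CGI-1746, 179 under LU-102, 261 under the combination and 62.1 under bortezomib. It kept the same highest and lowest library, but here LU-102 stood above CGI-1746. MT1X, a second MT1 form, had 41.1 in mock, 59.8 under CGI-1746, 48.2 under LU-102, 81.6 under the combination and 22.0 under bortezomib. All 3 were thus above mock in each of the 3 libraries with CGI-1746 or LU-102 and below it with bortezomib as deposited. With median-of-ratios scaling, which sets the libraries equal over genes that reach a level of 5 in all of them, the bortezomib library stood at 37.7 for MT1X against 35.98 in mock, and mock was then its lowest library. In bulk RNA, fewer cells that express a gene and less of its RNA in each cell cannot be told apart. The 3 genes were abundant: by level MT1E was gene 50 of 4202 in mock and gene 36 with the combination, MT2A gene 52 and gene 35, and MT1X gene 149 and gene 92. Since levels divide by a gene length that is not given, the order of MT1E and MT2A in a library is uncertain.

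**Figure D1:**
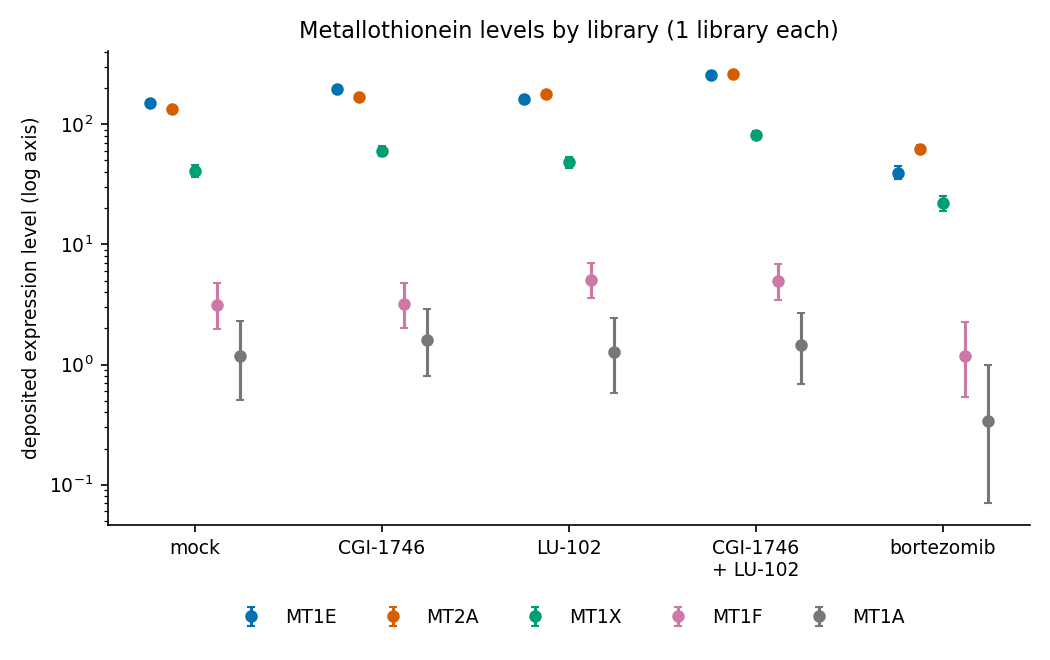
Deposited expression level, on a log axis, of 5 metallothionein genes in the 5 libraries. Points are single libraries and bars are exact Poisson intervals at 95% from approximate reads, for counting error only. MT1E, MT2A and MT1X are highest with the combination (257, 261 and 81.6) and lowest with bortezomib as deposited (with median-of-ratios scaling MT1X is lowest in mock), and MT1F and MT1A lie far below them in every library.

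Reads behind these levels are known only roughly. With the longest coding transcript of each gene the mock library held about 1839 reads of MT1E, 1783 of MT2A and 372 of MT1X, and with the shortest about 837, 1318 and 311. MT1X is therefore the least precise of the 3. MT1F and MT1A, also metal-binding MT1 forms, were low, with about 37 and 8 reads in mock. MT1F had a level of 3.14 in mock, 3.20 under CGI-1746, 5.08 under LU-102, 4.97 under the combination and 1.19 under bortezomib. MT1A had 1.17, 1.61, 1.28, 1.45 and 0.34 in the same order. For MT1F the 2 libraries with LU-102 stood above the others, and for MT1A the intervals of every ratio to mock held 1.

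With CGI-1746 alone all 3 genes were higher than in mock, a comparison of 1 library with 1 library. MT1X had the largest ratio, 1.46 (1.27 to 1.67), followed by MT1E at 1.31 (1.23 to 1.39) and MT2A at 1.25 (1.17 to 1.33). Differences are given on log2(level + 1), the pseudocount of 1 being added to both levels, and cover genes whose level reached 1 in either of the 2 libraries. There MT1X was 0.53 higher, MT1E 0.38 and MT2A 0.32, against an all-gene median of -0.02. Counted from the highest of the 4186 genes compared, MT1X was gene 23, MT1E gene 43 and MT2A gene 67. None of the 3 was 2-fold higher, and 0.167% of all genes differed 2-fold in either direction. MT1F had a ratio of 1.02 (0.630 to 1.65).

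LU-102 alone, set against mock, turned the order of the genes. MT2A had the largest ratio, 1.33 (1.25 to 1.41), MT1X had 1.17 (1.02 to 1.35) and MT1E 1.08 (1.01 to 1.15). With the shortest transcript the interval of MT1E was 0.979 to 1.18 and held 1. On the log2 scale MT2A was 0.40 higher, MT1X 0.23 and MT1E 0.10, against an all-gene median of -0.06. From the highest of 4193 genes MT2A was gene 53, MT1X gene 211 and MT1E gene 677. None was 2-fold higher, as against 0.0715% of all genes. MT1F had the largest ratio of the family, 1.62 (1.04 to 2.48), on about 60 reads against 37, and with the shortest transcript its interval of 0.924 to 2.88 held 1.

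Set directly against each other, the 2 single agents differed by gene. MT1E was higher with CGI-1746 than with LU-102, at a ratio of 1.22 (1.15 to 1.29), and so was MT1X, at 1.24 (1.09 to 1.41). MT2A had a ratio of 0.941 (0.888 to 0.997), and with the shortest transcript the interval of 0.879 to 1.01 held 1. None of the 3 differed 2-fold, and 0.0954% of all genes did.

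Given together, the 2 inhibitors went with the highest levels of the 3 genes in any library. MT1X had a ratio of 1.99 (1.75 to 2.26), MT2A 1.94 (1.83 to 2.05) and MT1E 1.71 (1.62 to 1.82). On the log2 scale MT1X was 0.97 higher, MT2A 0.95 and MT1E 0.77, against an all-gene median of 0.03. Counted from the highest of 4189 genes, MT1X was gene 8, MT2A gene 9 and MT1E gene 16. None reached 2-fold, which 0.215% of all genes did in either direction. MT1F was 0.53 higher, with a ratio of 1.58 (1.01 to 2.41), and MT1A 0.17 higher. With the shortest transcript the interval of MT1F was 0.899 to 2.82 and held 1. With median-of-ratios scaling MT1X was 0.87 higher, MT2A 0.84 and MT1E 0.67. Genes beside the members in mock level stood elsewhere: TMSB4X, an actin-binding thymosin just below MT2A, was at -0.10. F3, the tissue factor gene just below MT1X, was at -0.30. The short RNAs SNORA73B and SCARNA2, beside MT1E, were both 0.37 higher.

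**Figure D2:**
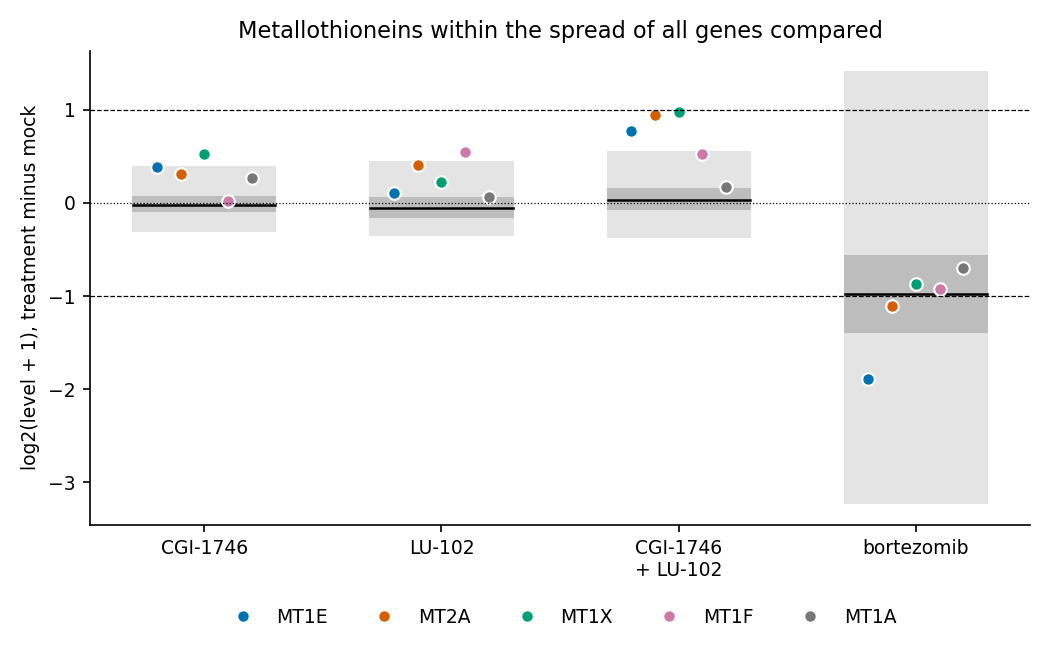
Difference from mock on log2(level + 1) for 5 metallothionein genes (points) in each treatment. Light boxes span the 1st to the 99th percentile of all genes compared, dark boxes the 25th to the 75th, black lines are medians and dashed lines mark 2-fold. With the combination MT1E, MT2A and MT1X lie above the light box, whose upper edge is at 0.55, and with bortezomib all 5 genes lie below 0, as the median gene does, although MT1X is at 0.065 with median-of-ratios scaling.

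Adding LU-102 to CGI-1746 went with a higher level of all 3 genes. MT2A had a ratio of 1.55 (1.47 to 1.64), MT1X 1.37 (1.22 to 1.53) and MT1E 1.31 (1.24 to 1.38). Adding CGI-1746 to LU-102 gave MT1X a ratio of 1.69 (1.503 to 1.91), MT1E 1.59 (1.51 to 1.69) and MT2A 1.46 (1.39 to 1.54). So MT2A had the largest step of the 3 when LU-102 was added and the smallest when CGI-1746 was added. No member was 2-fold different in either comparison, and 0.0954% and 0.143% of all genes were. These comparisons share the combination library, and each agent's own comparison shares mock, so they are not separate observations.

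The gain in level over mock can be set beside the sum of the gains of the single agents. For MT1E the gain was 107 with the combination, against 57.3 for the sum of the single agents. For MT2A it was 126 against 77.1, and for MT1X 40.6 against 25.8. The excess was 49.6 for MT1E, 49.0 for MT2A and 14.7 for MT1X, with normal intervals for counting error of 34.2 to 65.02, 34.4 to 63.6 and 4.86 to 24.6. With median-of-ratios scaling the excess was 20.0 for MT1E, 19.5 for MT2A and 5.56 for MT1X, and the interval of MT1X, -2.97 to 14.1, held 0.

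**Figure D3:**
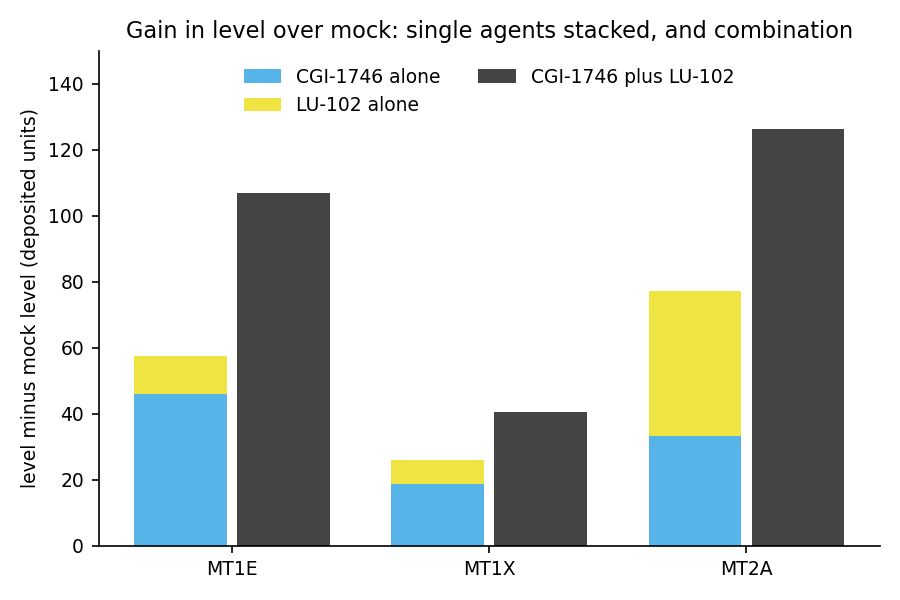
Level minus the mock level, in deposited units, for MT1E, MT1X and MT2A. The left bar of each pair stacks the gains of the 2 single agents and the right bar is the combination. The right bar is taller in each gene: 107 against 57.3 for MT1E, 40.6 against 25.8 for MT1X and 126 against 77.1 for MT2A.

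On the log2 scale, where 0 means that the 2 ratios to mock multiply, the departure was 0.28 for MT1E, 0.23 for MT2A and 0.22 for MT1X. The all-gene median was 0.10, and MT1E lay above 90.2% of 4197 genes, MT2A above 82.0% and MT1X above 80.1%. With a pseudocount of 0 these shares were 80.2%, 70.4% and 67.8%, and with a pseudocount of 5 97.8%, 94.6% and 93.7%. For the departures of 0.28, 0.23 and 0.22, intervals for counting error were 0.17 to 0.40, 0.11 to 0.34 and -0.04 to 0.47. With median-of-ratios scaling the departures were 0.11, 0.054 and 0.045, and all 3 intervals then held 0. None passed 1 log2 unit, and 0.143% of all genes did. With the all-gene median subtracted the departures were 0.18 for MT1E, 0.13 for MT2A and 0.12 for MT1X. The combination thus exceeded the added gains of MT1E and MT2A in the deposited values and after median-of-ratios scaling. The excess was smaller after scaling. With the shortest transcript its scaled interval was 0.270 to 39.8 for MT1E and 4.79 to 34.2 for MT2A. The departure from multiplied ratios was also smaller after scaling and was then within counting error of 0 for all 3 genes.

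Bortezomib served as the control for pathways changed by proteasome inhibition, and the 3 genes were lower there as deposited. MT1E had a ratio of 0.264 (0.239 to 0.291), MT2A 0.461 (0.425 to 0.4997) and MT1X 0.535 (0.451 to 0.634). On the log2 scale MT1E was at -1.89, MT2A at -1.10 and MT1X at -0.87, so 2 of the 3 were 2-fold lower. That is near the background, since 48.1% of the 4189 genes were 2-fold lower. Against the all-gene median of -0.98, MT1E was lower by log2 -0.92, MT2A by -0.12, and MT1X was 0.11 above it. With median-of-ratios scaling MT1E was at -0.94 and MT2A at -0.15, while MT1X turned to 0.065, and none of the 3 was then 2-fold different. As deposited, MT1E lay above 9.31% of genes, MT2A above 40.5% and MT1X above 57.5%. With median-of-ratios scaling these shares were 19.6%, 66.9% and 76.1%. Among genes that reach 5 in either library MT1E lay above 26.2%, MT2A above 65.3% and MT1X above 74.2%. With a pseudocount of 0 these shares were 38.0%, 69.0% and 75.8% of the genes compared, and with a pseudocount of 5 2.77%, 10.5% and 19.1%. The side of the median on which MT2A falls thus depends on the genes it is set beside, the pseudocount and the scaling. That of MT1X depends on the pseudocount, and MT1E lay below the median in each of these settings. The part of the higher summed level and of the fewer genes above a level of 1 in this library was not tested.

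Against bortezomib, the LU-102 library had 4.07 times the level of MT1E (3.70 to 4.49), 2.87 times that of MT2A (2.66 to 3.11) and 2.19 times that of MT1X (1.86 to 2.59). All 3 were 2-fold higher, as 43.1% of all genes were. With median-of-ratios scaling MT1E was 1.08 higher on the log2 scale, MT2A 0.58 and MT1X 0.19, so MT2A and MT1X were then under 2-fold. The combination had 6.49 times the level of MT1E (5.93 to 7.13), 4.20 times that of MT2A (3.90 to 4.52) and 3.71 times that of MT1X (3.19 to 4.33). Again all 3 passed 2-fold, against 49.4% of genes that were higher. On the log2 scale the combination stood above bortezomib by 2.67 for MT1E, above 97.5% of genes, by 2.05 for MT2A and by 1.85 for MT1X, at an all-gene median of 0.99. With median-of-ratios scaling these were 1.61, 0.99 and 0.80, and only MT1E stayed past 2-fold.

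Ratios of members within a library do not depend on how libraries are scaled. The level of MT1E was 1.11 times that of MT2A in mock, 1.17 under CGI-1746, 0.902 under LU-102, 0.984 under the combination and 0.637 under bortezomib. Relative to mock this ratio was 0.573 with bortezomib (exact conditional interval 0.504 to 0.650), 0.811 with LU-102 (0.742 to 0.887) and 0.885 with the combination (0.816 to 0.961). With CGI-1746 it was 1.05 (0.960 to 1.14). The level of MT1E relative to MT2A was thus below that of mock in the 3 libraries with LU-102 or bortezomib, and with CGI-1746 the interval held 1. The level of MT1X relative to MT2A was 0.305 in mock and between 0.270 with LU-102 and 0.356 with CGI-1746 elsewhere. Relative to mock it was 1.17 with CGI-1746 (1.01 to 1.36, or 0.991 to 1.38 with the shortest transcript), and the other 3 intervals held 1. Of the summed level of the 3 genes MT1E made up 46.0% in mock and 32.0% with bortezomib, and MT2A 41.4% and 50.2%.

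**Figure D4:**
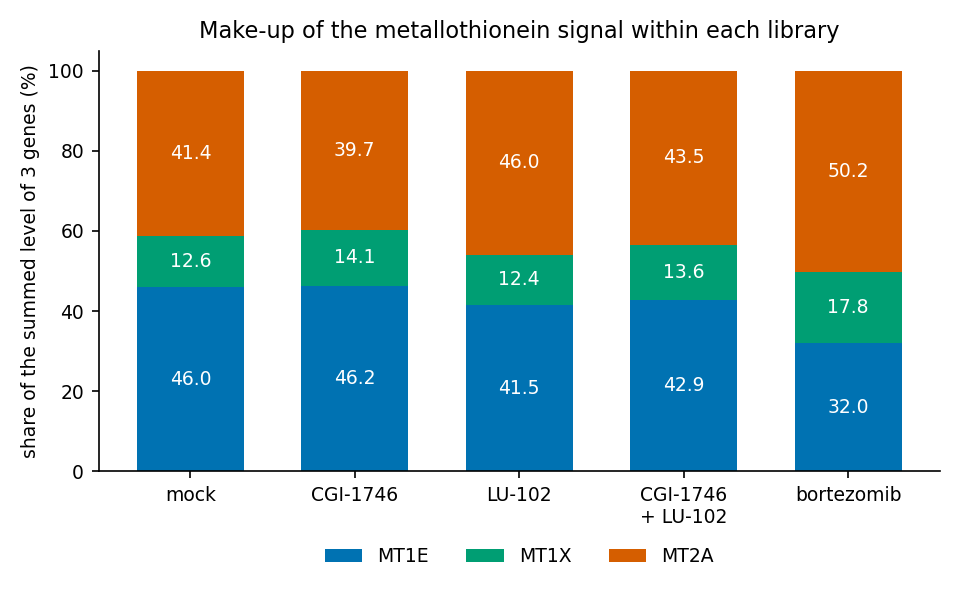
Share of each gene in the summed level of MT1E, MT1X and MT2A, in percent, for each library. The share of MT1E is 46.0% in mock and 32.0% with bortezomib, and that of MT2A is 41.4% and 50.2%.

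Of the other genes of metal handling, 13 of the 14 analysed had ratios to mock between 0.736 and 1.34 with the combination, and the other, SLC39A4, had 1.92. SLC30A1, the zinc exporter of the plasma membrane and a known MTF1 target, had a level of 41.6 in mock, 41.9 under CGI-1746, 34.0 under LU-102, 42.3 under the combination and 28.1 under bortezomib. Its level was close to mock in the combination, the library in which MT1E, MT2A and MT1X stood highest. Whether zinc or MTF1 had a part in their levels was not tested. SLC30A7, a zinc transporter of the Golgi, was the other of 2 genes analysed from a list of 11 (MTF1 and zinc exporters) and was at -0.11 with the combination. Of 14 zinc importers 9 were analysed, with a median of 0.10 with the combination, and 6 of the 9 lay above the all-gene median of 0.03. SLC39A4, an importer known from the gut, had levels of 1.02 in mock and 1.95 with the combination. Its ratio of 1.92 lay above that of MT1E, but at such low levels the pseudocount shrinks it, to 0.55 on the log2 scale. SLC39A3 was at 0.28, SLC39A10 at -0.25 and SLC39A1 at 0.21. Of 15 copper-handling genes 3 were analysed, between -0.07 for SCO1, a copper chaperone of cytochrome oxidase, and 0.04 for SOD1, the copper and zinc superoxide dismutase. SLC31A1, the copper importer, was at 0.02. None of these 14 genes was 2-fold different with the combination, as against 0.215% of all genes.

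Lists of oxidative and heat stress genes stood above the all-gene median with the combination. Of 17 NRF2 and redox genes 15 were analysed, with a median of 0.21, and 12 lay above the all-gene median. FTL, the ferritin light chain, had 157 in mock and 239.8 with the combination and was 0.61 higher. FTH1, the heavy chain, was 0.43 higher, and SQSTM1, an autophagy receptor, 0.39 higher. HMOX1, heme oxygenase, was 1.41 higher and the only one of the 15 past 2-fold. Of 16 heat shock genes 15 were analysed, with a median of 0.40, 14 of them above the all-gene median and 4 past 2-fold. Over all genes 0.215% were past 2-fold in either direction, and the lists were chosen with earlier results known. Of 10 glucocorticoid receptor and target genes 3 were analysed: DUSP1, a MAP kinase phosphatase, was at 0.06, ERRFI1, a feedback inhibitor of EGFR, at -0.10 and CEBPD, a transcription factor, at -0.34. With bortezomib the metallothionein list of 5 genes had a median of -0.92, the redox list -0.85 and the heat shock list -1.32, against -0.98 for all genes. The 75th percentile over all genes with bortezomib was -0.57, so most genes lay below mock there. Below mock too were 13 of the 15 redox genes and 12 of the 15 heat shock genes, and MT1E, MT2A and MT1X in the deposited values. HMOX1 at 0.69, HSPA1B at 0.67, HSPA1A at 0.64 and HSPA6 at 1.16 were among the exceptions and stood above mock. MT1X turned to 0.065 with median-of-ratios scaling.

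**Figure D5:**
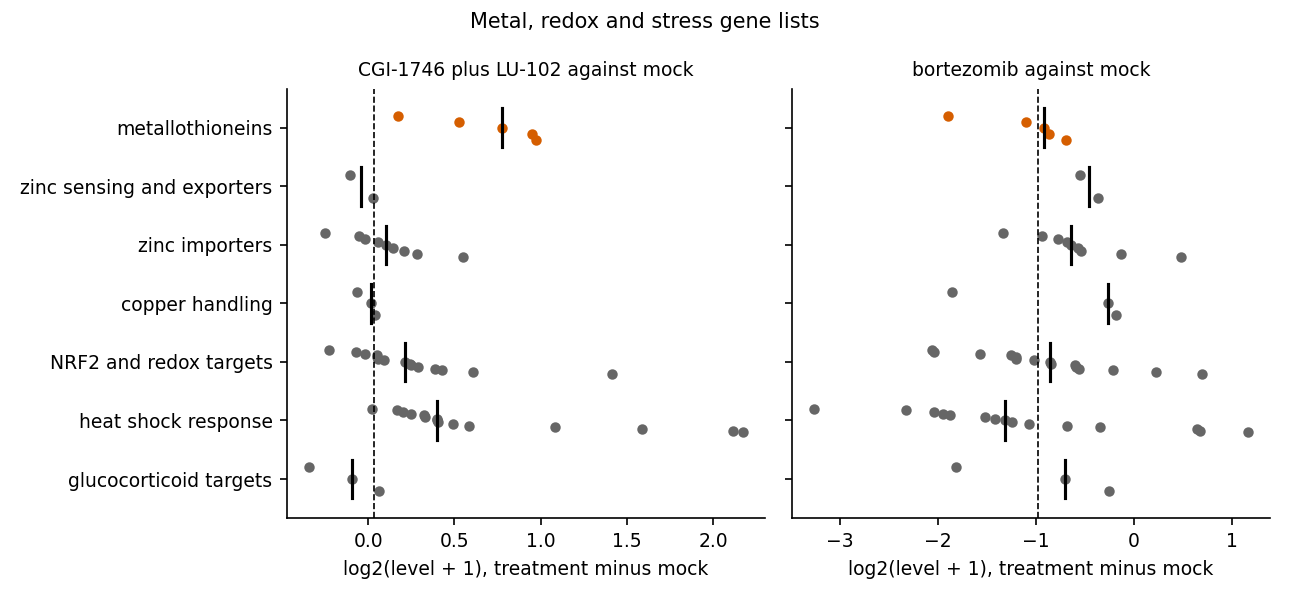
Difference from mock on log2(level + 1) for each analysed gene of 7 lists, with the combination (left) and bortezomib (right). Points are genes, thick lines list medians and the dashed line the all-gene median. With the combination the 5 metallothioneins have a median of 0.77 and the 2 zinc exporters one of -0.04, and with bortezomib the metallothioneins, at -0.92, lie near the all-gene median of -0.98.

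The genes nearest in pattern were found by Euclidean distance between the 4 log2 differences from mock of each gene and the mean of the 3 members, over 1477 genes that reach a level of 5 in any library. That mean was 0.41 under CGI-1746, 0.24 under LU-102, 0.90 under the combination and -1.29 under bortezomib. DNAJB1, the HSP40 partner of HSP70, was nearest at a distance of 0.33, with 0.47, 0.09, 1.08 and -1.07 in the same order. SERPINH1, a collagen chaperone, followed at 0.34, then SNORA23, a small nucleolar RNA, at 0.44, HCFC1R1 at 0.48, DDIT4, an inhibitor of mTORC1 signalling, at 0.48 and TMEM147 at 0.55. The members themselves lay at 0.27 for MT2A, 0.44 for MT1X and 0.63 for MT1E, and the median gene at 1.24. Each distance rests on 5 libraries that share 1 mock, and 5 of the 6 genes were also among the nearest 6 with median-of-ratios scaling.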

How the data were processed

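Total RNA of 5 MDA-MB-231 cultures, 1 per condition, was sequenced with paired reads of 150 bases, 40000000 reads planned per library, per the labels' protocols. The authors deposited 1 table whose levels are a normalized expression signal, headed least squares mean per the file headers, with no stated scale. Partek and hg38 are named in the submitters' processing notes. No source used here states the aligner, annotation, filter, strand or normalization. A further 7 columns repeat a library, were identical to the column used, and were not used.

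Each comparison used log2(level + 1) for genes whose level reached 1 in either library, with 2-fold as the threshold, and no test. One read's worth of level times length, 53.8 to 59.4, came from short RNAs: of the 19 to 31 with under 60 reads, 18 to 29 lay within 0.1 of a whole number in units of 0.5 reads. Approximate reads used the longest coding transcript in GENCODE 29, and ratios have Clopper-Pearson intervals. Such intervals treat reads as independent molecules. Departures and gains have normal intervals. Median-of-ratios factors came from 445 genes. The script was tested on simulated data in which most genes were unchanged, so scaling was not checked for a library like that of bortezomib.

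The members and lists were chosen with earlier results of these data known. Named genes are the members, up to 4 of each list by largest difference from mock with the inhibitors, the 6 nearest in pattern and the neighbours in mock level, 1 of which is not reported here. Alternatives were other pseudocounts, filters, scaling and transcript lengths. Software was scipy 1.17.1, pandas 2.3.3, matplotlib 3.10.9 and numpy 2.4.6 under Python 3.11.15.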

Additional observations from a re-analysis of the deposited data

How the results depend on the processing

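No paired analysis was possible because each condition has 1 library, and leaving out a library leaves no comparison. Pseudocounts of 0, 0.5 and 5, a level of at least 5 and no filter left the medians of the 3 genes within counting error of the reported ones, and left the number of them 2-fold from mock as it was. In LU-102 against bortezomib MT1X went from 1.10 to 0.98 with a pseudocount of 5, so that 2 of the 3 genes, not 3, passed 2-fold. Scaling moved more. With median-of-ratios scaling the median of the 3 genes was 0.84 for the combination against mock, -0.15 for bortezomib against mock, 0.53 for the combination against LU-102, 0.58 for LU-102 against bortezomib, 0.99 for the combination against bortezomib and 0.054 for the departure from additivity. With the all-gene median subtracted it was -0.12 for bortezomib against mock, 0.58 for the combination against LU-102, 0.59 for LU-102 against bortezomib and 1.06 for the combination against bortezomib. MT1X with bortezomib turned from -0.87 to 0.065 with median-of-ratios scaling and 0.11 with the all-gene median subtracted. The count of the 3 genes 2-fold from mock with bortezomib went from 2 to 0 under both. The scaling shifted the all-gene median of bortezomib against mock from -0.98 to -0.44.

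Counts over all genes moved most with the pseudocount. With pseudocounts of 0 and 5 they went from 7 to 21 and 1 for CGI-1746 against mock, from 3 to 8 and 0 for LU-102, from 9 to 20 and 3 for the combination and from 2073 to 3117 and 525 for bortezomib. They went from 4 to 17 and 1 for the combination against CGI-1746, from 6 to 13 and 2 against LU-102 and from 2126 to 3223 and 548 against bortezomib. They went from 4 to 13 and 0 for CGI-1746 against LU-102, from 1862 to 3069 and 481 for LU-102 against bortezomib and from 6 to 17 and 1 for the departure. The other settings lay within these ranges. For bortezomib 2.80% of these were higher as deposited, 22.2% with median-of-ratios scaling and 49.0% with the all-gene median subtracted. The same shares were 96.9%, 78.2% and 55.3% for LU-102 against bortezomib and 97.5%, 76.0% and 57.4% for the combination against it. TMEM147 fell from rank 6 to rank 22 among genes near in pattern with median-of-ratios scaling. The approximate reads limit MT1A and MT1F most.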
